A study of Homo sapiens with 9 samples.

Results

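The genes described here encode the lysine methyltransferases that write methyl marks on histones and the lysine demethylases that erase them. They were chosen by symbol, as the KDM1 to KDM8, KMT2 to KMT5, SETD (SETDB included), SUV39H, EZH1, EZH2, NSD1 to NSD3, EHMT1, EHMT2 and DOT1L genes. That choice was made with earlier results of these data known. The rule found 49 of the 19569 genes in the count table, 29 writers and 20 erasers. All 9 libraries gave 0 counts for KDM4E and KDM4F, for which the deposited log2 table holds no symbol, and the other 47 genes (29 writers and 18 erasers) passed the filter on low counts and were tested. A count of 0 in a library allows up to 3 counts there, and intervals of this kind cover counting error only.

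Histone lysine methylation is read by position. Methylation of lysine 4 of histone H3 (H3K4) marks promoters and enhancers of active genes, H3K36 and H3K79 methylation lie over transcribed gene bodies, and H3K9 and H3K27 methylation mark silenced chromatin. Each mark has its own writers, most of which carry a SET domain (DOT1L does not). The erasers are either flavin-dependent amine oxidases (KDM1A, KDM1B) or iron- and 2-oxoglutarate-dependent JmjC enzymes (the other KDM families). Some erasers act on more than a single mark, and each gene is grouped here under a single mark. In T cells, H3K27 methylation by the Polycomb complex PRC2 keeps lineage and cytokine genes silent, and antigen receptor signals are known to induce the H3K27 demethylase KDM6B.

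Messenger RNA was sequenced in Jurkat Clone E6-1, an established human T-cell leukaemia line that is 1 clone, so the results are those of 1 transformed line and not of primary T cells. The control group was non-activated cells (0 h), and the other groups were cells kept for 5 h or for 12 h on a surface that carried anti-CD3 (10 µg/mL), with soluble anti-CD28 (5 µg/mL), a treatment that stands in for engagement of the antigen receptor and of its co-receptor. Each group had 3 libraries, called biological replicates with no word on separate cultures, so the p-values speak only of how far these libraries scatter, and that scatter may be technical. No non-activated culture at 5 h or 12 h was analysed here, so activation cannot be told apart from time on the plate.

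The libraries held 4222258 to 9359187 counts. The activation gene CD69 rose from 73.3 CPM (counts relative to library size, with sizes scaled by the trimmed mean of M-values, TMM) at 0 h to 865 at 5 h and 331 at 12 h, and EGR1 from 13.6 to 1173 and 479. The 10 T-cell markers fixed for this work (CD3D, CD3E, CD3G, CD247, CD2, CD5, CD7, LCK, ZAP70, LAT) were all detected and summed to 5173 to 6264 CPM in every library. Single markers moved within that sum. At an edgeR adjusted p under 0.05, 2 were higher and 3 lower at 5 h (24.9% and 24.8% of all genes). At 12 h, 2 were higher and 2 lower (26.3% and 24.8% of all genes). Myeloid markers summed to 1.22 to 3.01 CPM with S100A8 at 0, and epithelial and fibroblast markers to 2.94 to 7.85 CPM with EPCAM and COL1A2 at 0. B-cell markers summed to 183 to 227 CPM at 0 h, 101 to 133 at 5 h and 149 to 174 at 12 h, most of it CD79A (a mean of 140.2 CPM) and then BLK (21.8, 13 and 16.9 CPM in the 3 groups). MS4A1 and PAX5 each had 3 counts in all libraries together. The part of these B-lineage transcripts in the results was not tested. In bulk RNA, fewer cells that express a gene and less RNA per cell cannot be told apart.

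More of these enzymes rose than fell after activation. At 5 h against 0 h, 20 of the 47 tested genes were higher and 8 were lower (edgeR quasi-likelihood test, Benjamini-Hochberg adjusted p under 0.05), so 59.6% were called against 49.7% of the 12036 genes tested. At 12 h against 0 h, 22 were higher and 2 lower, and their 51.1% called was equal to the 51.1% of all genes. Between 12 h and 5 h, 16 were higher and 4 lower, 42.6% against 36.1% of all genes. The counts per direction are to be read against a background of 24.9% of all genes higher and 24.8% lower at 5 h, 26.3% and 24.8% at 12 h, and 18.1% and 18.0% from 5 h to 12 h. The median log2 fold change of the 47 genes was 0.12, 0.19 and 0.14 in the 3 comparisons, against 0.00, 0.00 and 0.01 over all genes tested. These comparisons share libraries, so they are given side by side and not as repeats of each other.

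The typical change was no larger than that of other genes. The median absolute log2 fold change at 5 h was 0.35 for these enzymes and 0.35 for all genes, and at 12 h 0.28 and 0.36. A change of at least 1.5-fold with a call was seen in 10 enzymes at 5 h (25.8% of all genes passed that rule), in 9 at 12 h (26.8%) and in 4 between 5 h and 12 h (14.2%). The 3 libraries of each group did not overlap for 29 enzymes at 5 h (58.6% of all genes), 28 at 12 h (56.2%) and 29 between the activated groups (44.9%). Of the 29 writers, 9 rose and 6 fell at 5 h, and 12 rose and 1 fell at 12 h. Of the 18 tested erasers, 11 rose and 2 fell at 5 h, and 10 rose and 1 fell at 12 h. The median log2 fold change of the erasers was 0.30 at 5 h and 0.35 at 12 h, and that of the writers 0.08 and 0.17. The writers include 6 SET-domain proteins placed here outside the histone marks, some with disputed or no known activity on histones. Of these 6, 3 rose and 0 fell at 5 h, and 2 rose and 0 fell at 12 h (median 0.44 and 0.17). Under upper-quartile scaling, which lowers the median of all genes by 0.086 at 5 h (log2), the split over all genes tested at 5 h moved from 3001 higher and 2984 lower to 2412 and 3622, and that of the enzymes from 20 and 8 to 17 and 10.

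**Figure D1:**
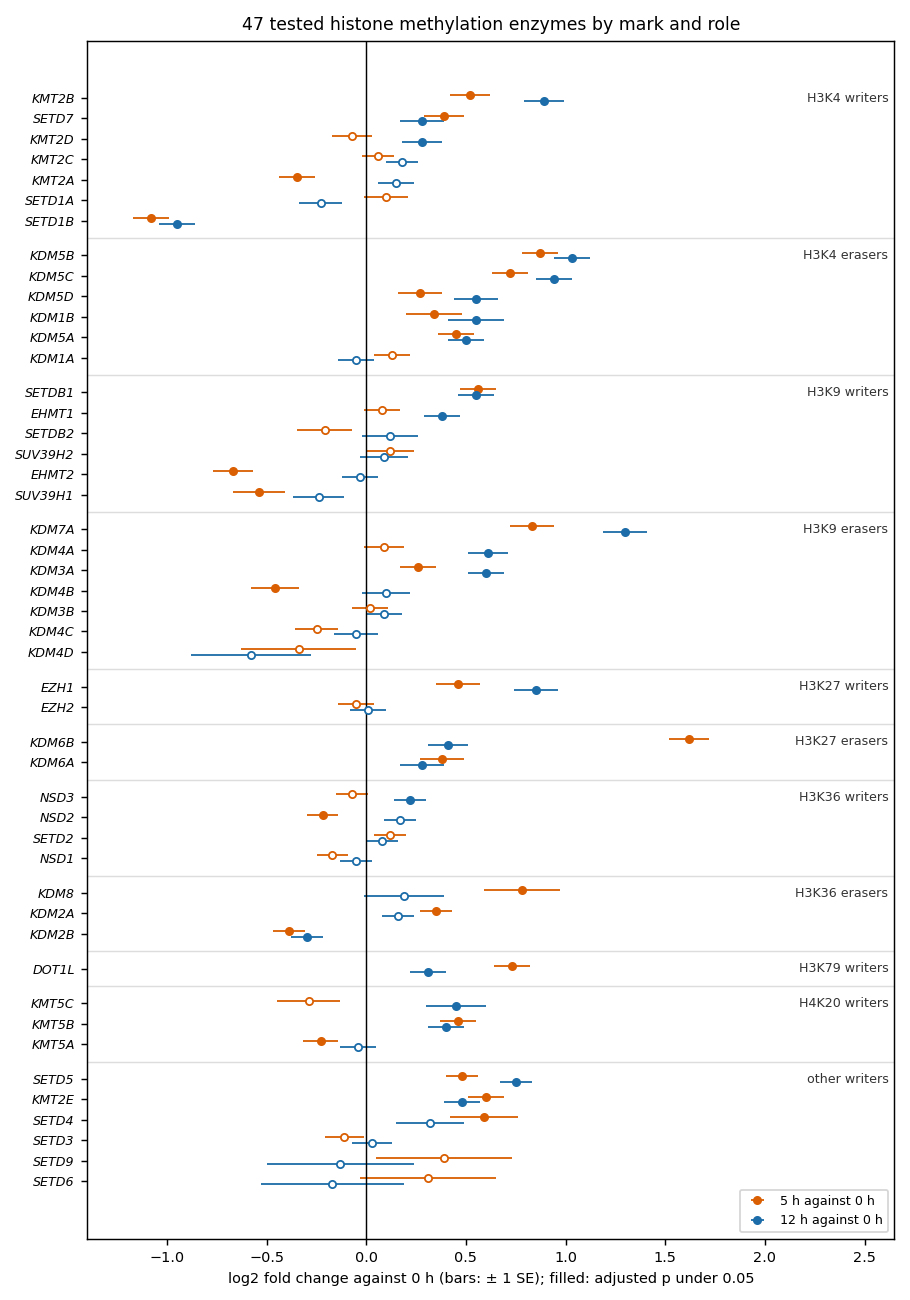
Log2 fold change against 0 h (x axis) of the 47 tested enzymes (y axis, grouped by mark and by role), at 5 h in orange and at 12 h in blue. Bars are 1 standard error of the fit on 3 libraries a group, and filled points passed an adjusted p of 0.05. KDM6B at 5 h (1.62) lies farthest to the right and SETD1B at 5 h (-1.08) farthest to the left.

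Promoter sequence was available for 45 of the 49 genes (RefSeq, GRCh38.p14, 250 bases before to 50 after the annotated start); DOT1L, KDM4E, NSD3 and SETD1B had no entry. These windows are shown because EGR1 was induced and because E2F factors control growth genes. The words searched on both strands were GCGTGGGCG and GCGGGGGCG for EGR factors, TTTCCCGC, TTTGGCGC, TTTCGCGC and TTTGCCGC for E2F, TGACGTCA for the cyclic AMP response element (CRE), TGAGTCA for AP-1, 1 palindromic NRF1 word and 4 NF-kappaB words, and no 2 matches in these promoters overlapped. Capitals mark the match in each 30-base window, which is written along the gene's own strand.
KMT2B, EGR word, chr19:35717926-35717955: cgccccgcccCGCCCCCGCtctctcccctc
KMT5C, EGR word, chr19:55339679-55339708: tttgacggcgGCGGGGGCGtggcggggttt
NSD2, EGR word, chr4:1871363-1871392: gcggcgggcgggaggcGCGGGGGCGgggtc
NSD2, E2F word, chr4:1871305-1871334: cggcgcgcactTTTCCCGCggcttctgcga
EZH1, E2F word, chr17:42745137-42745166: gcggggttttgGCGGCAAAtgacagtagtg
KDM1B, E2F word, chr6:18155177-18155206: cgccccgcctcTTTCCCGCgccccgcctct
KDM6A, AP-1 word, chrX:44873067-44873096: cacggctgacgTGAGTCAacaaaggtcacg
SUV39H2, CRE word, chr10:14878739-14878768: tcggccgccagTGACGTCAggacgccgtgc
The gene strand is plus for these genes except EZH1, which lies on the minus strand. An EGR word was in 5 of the 45 promoters (11.1%), in 9.41% of the 9788 promoters of tested genes and in 5.7% of all 27305 promoters. An E2F word was in 4 (8.89%, against 5.53% of tested genes and 3.33% of all), a CRE in 1 (2.22%, against 3.37% and 1.98%), an AP-1 word in 2 (4.44%, against 2.87% and 4.92%), an NRF1 word in 1 (2.22%, against 2.44% and 1.36%) and an NF-kappaB word in 0 (against 0.746% and 0.648%). KMT2C and SETD3 held the other EGR matches, EZH2 and a second place in KDM1B the other E2F matches, KDM4C the other AP-1 match and SETD4 the NRF1 match. A match describes these letters in this window and is not a measured site.

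The H3K27 enzymes held the largest change among the 47 genes, and it was on the erasing side. KDM6B (JMJD3, ENSG00000132510, chr17:7839904-7854796 on the plus strand, gene bounds here and below from GENCODE release 29 on GRCh38) encodes a JmjC demethylase of H3K27. Its libraries gave 107, 109.9 and 121 CPM at 0 h, 344, 339 and 357 CPM at 5 h, and 131, 170.4 and 147 CPM at 12 h. All 5 h libraries lay far above the others, and the 12 h libraries lay above those at 0 h with no overlap. The log2 fold change was 1.62 ± 0.10 (SE of the fit, 3 libraries a group) at 5 h, a 3.07-fold rise (edgeR adjusted p = 1.77e-11), and 0.41 ± 0.10 at 12 h (adjusted p = 0.00141). From 5 h to 12 h the level fell by 1.21 on the log2 scale (adjusted p = 1.07e-08).

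KDM6A (UTX, ENSG00000147050, chrX:44873177-45112602), the X-linked paralog of KDM6B, moved little. It stood at 38.5, 39.3 and 33.2 CPM at 0 h, 51.1, 45.9 and 47.5 at 5 h, and 50.5, 44.1 and 41.2 at 12 h. Both activated groups lay above the 0 h libraries, by 0.38 ± 0.11 at 5 h (edgeR adjusted p = 0.00736) and 0.28 ± 0.11 at 12 h (adjusted p = 0.0424). The 12 h call was lost without 0 h library 1 or 3 or 12 h library 1 or 2 (adjusted p 0.0522 to 0.179), and also with DESeq2 (0.0744), with no filter on low counts (0.0587), with only the 2 groups compared (0.0652) and with upper-quartile scaling (0.114). Within a library, the log2 ratio of KDM6B to KDM6A counts was 1.61 ± 0.22 (SD, n = 3) at 0 h, 2.85 ± 0.09 at 5 h and 1.72 ± 0.31 at 12 h. The 5 h ratios did not overlap the 0 h ratios (exact two-sided permutation test, p = 0.1, the smallest that 3 against 3 allows), while the 12 h ratios did (exact p = 0.9). UTY, the Y-linked paralog of KDM6A, lies outside the rule by its symbol and is counted below with the other JmjC proteins. Its mean went from 31.7 CPM at 0 h to 42.5 at 5 h and 52.2 at 12 h. UTY was called higher by 0.43 at 5 h (edgeR adjusted p = 0.00279) and by 0.72 at 12 h (adjusted p = 1.25e-05).

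On the writing side, the PRC2 catalytic subunits EZH1 and EZH2 were set side by side. EZH1 (ENSG00000108799, chr17:42700275-42745049), known as the form that prevails in resting cells, gave 48.8, 58.0 and 65.7 CPM at 0 h, 79.2, 78.5 and 80.2 at 5 h, and 110.3, 112 and 90.3 at 12 h. The groups did not overlap and were ordered 0 h, 5 h, 12 h, with log2 fold changes of 0.46 ± 0.11 at 5 h (edgeR adjusted p = 0.00168), 0.85 ± 0.11 at 12 h (adjusted p = 2.02e-06) and 0.39 ± 0.11 from 5 h to 12 h (adjusted p = 0.00815). EZH2 (ENSG00000106462, chr7:148807383-148884321), known as the form of dividing cells, gave 184, 206 and 203 CPM at 0 h, 211, 185 and 178 at 5 h, and 204, 192 and 199.9 at 12 h. Its groups overlapped throughout, and no difference passed the test (log2 fold change -0.05 ± 0.09 at 5 h, adjusted p = 0.681, and 0.01 ± 0.09 at 12 h, adjusted p = 0.966). The log2 ratio of EZH2 to EZH1 counts therefore went from 1.79 ± 0.15 (SD, n = 3) at 0 h to 1.27 ± 0.13 at 5 h and 0.94 ± 0.19 at 12 h, with no overlap between 0 h and 5 h or between 0 h and 12 h (exact permutation p = 0.1 each, the smallest possible). The 12 h ratios also lay below those at 5 h (exact p = 0.1), with the highest of one and the lowest of the other both rounding to 1.15.

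EZH2 carries a short 3' untranslated region (262 bases in its longest GENCODE form), which is a known target of the microRNA miR-101 and of miR-26a. The mature sequences are from RefSeq, with the seed (bases 2 to 8) in capitals, and the sites are the letters that pair with it, in capitals within 30 bases of the EZH2 transcript.
hsa-miR-101-3p: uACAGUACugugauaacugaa
EZH2 site at bases 59 to 65: aggaacctcgaGTACTGTgggcaatttaga
EZH2 site at bases 114 to 120: gaatttgcaaaGTACTGTaagaataattta
hsa-miR-26a-5p: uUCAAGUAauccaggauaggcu
EZH2 site at bases 250 to 256: caactttgaataaagaaTACTTGAacttgt
The miR-101 word GTACTGT was in the longest 3' untranslated region of 11 of the 47 tested enzymes (23.4%), against 12.2% of the 11947 tested genes that could be searched, and the miR-26a word TACTTGA in 5 (10.6%, against 13.9%). Besides EZH2, the miR-101 word was in DOT1L, KDM5A, KDM5B, KDM6B, KDM7A, KMT5B and SETD5, all called higher at 5 h. Called higher at 5 h were 20 of all 47 tested enzymes and 24.9% of all genes, and a link between the word and the calls was not tested. It was also in KMT2A, called lower at 5 h, and in KDM3B and NSD1, with no call. These regions differ in length, so the shares are a description, and microRNA levels were not analysed here.

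**Figure D2:**
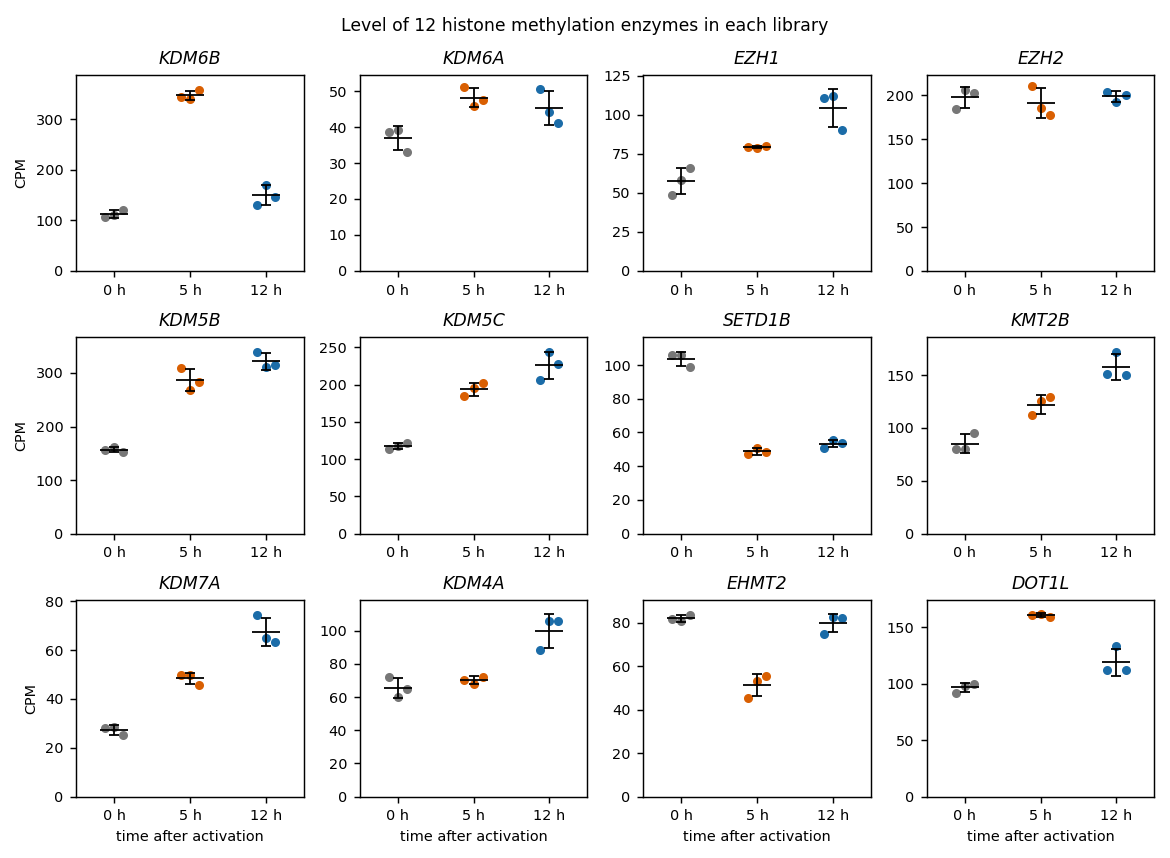
CPM (TMM-scaled, y axis from 0) of 12 enzymes in each library at 0, 5 and 12 h after activation (x axis). Each point is 1 library, and the bar and whiskers are the mean ± SD of 3. KDM6B and DOT1L peak at 5 h, EZH1, KDM5B, KDM5C, KMT2B and KDM7A have their highest means at 12 h, SETD1B is low at both times, and EHMT2 is low at 5 h.

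All 4 KDM5 demethylases, the JmjC erasers of H3K4 methylation, were called higher at both times. Of all genes, 24.9% were called higher at 5 h and 26.3% at 12 h. The KDM5D call at 5 h depended on the fit, as given below. KDM5B (JARID1B, ENSG00000117139, chr1:202724495-202809470) went from 156, 162 and 153 CPM at 0 h to 309, 269 and 283 at 5 h and 339.7, 311 and 314 at 12 h. Every activated library exceeded every control, by 0.87 ± 0.09 (log2) at 5 h (edgeR adjusted p = 4.66e-08) and 1.03 ± 0.09 at 12 h, a 2.05-fold rise (adjusted p = 4.52e-09). KDM5C (JARID1C, ENSG00000126012, chrX:53191321-53225422) gave 114, 118 and 121 CPM at 0 h, 184, 195 and 202 at 5 h, and 206, 243 and 228 at 12 h. The groups were separate, with a rise of 0.72 ± 0.09 at 5 h (adjusted p = 9.23e-07) and 0.94 ± 0.09 at 12 h (adjusted p = 2.03e-08). The further rise of KDM5C from 5 h to 12 h (0.23 ± 0.09, adjusted p = 0.0451) was lost when 12 h library 2 or 3 or any 5 h library was left out (adjusted p 0.0669 to 0.174), with no filter on low counts (0.067) and with only the 2 groups compared (0.0567).

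KDM5A (RBP2), the founding member of the family, rose from 162 ± 6.75 CPM (SD, n = 3) to 221 ± 10.2 at 5 h and 229 ± 14.4 at 12 h (log2 fold change 0.45 and 0.50, edgeR adjusted p = 1.96e-04 and 6.47e-05). KDM5D, the Y-linked paralog of KDM5C, rose by 0.27 at 5 h (adjusted p = 0.0409) and 0.55 at 12 h (adjusted p = 2.41e-04). Its 5 h call was lost without 0 h library 1 or 5 h library 1 or 2 (adjusted p 0.0978 to 0.258) and under upper-quartile scaling (0.165). KDM1B (LSD2), a flavin-dependent H3K4 eraser, rose by 0.34 ± 0.14 at 5 h (adjusted p = 0.0481), with overlapping groups, and by 0.55 ± 0.14 at 12 h (adjusted p = 0.00204). Its 5 h call was lost without any 5 h library or without 0 h library 2 or 3 (adjusted p 0.09 to 0.238), with DESeq2 (0.0765) and under upper-quartile scaling (0.136). KDM1A (LSD1), its paralog in CoREST complexes, gave 276 ± 22.9, 302 ± 15.6 and 265 ± 18.1 CPM, with no call in any comparison. Summed over the 6 H3K4 erasers, the level went from 793 to 838 CPM at 0 h to 1106 to 1183 at 5 h and 1190.2 to 1210.1 at 12 h.

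Of the 7 H3K4 writers, 2 rose and 2 fell at 5 h, and 3 rose and 1 fell at 12 h. Over all genes, 24.9% rose and 24.8% fell at 5 h, and 26.3% and 24.8% at 12 h. SETD1B (ENSG00000139718, chr12:121804180-121832584), a catalytic subunit of the SET1 COMPASS complex that trimethylates H3K4 at promoters, had the deepest fall of all the enzymes. Its libraries gave 106, 106 and 98.6 CPM at 0 h, 47.1, 51.1 and 48.3 at 5 h, and 51.0, 55.3 and 54.0 at 12 h. Every activated library lay far below every control, with a fall of 1.08 ± 0.09 on the log2 scale at 5 h, which is 2.12-fold lower (edgeR adjusted p = 3.81e-09), and of 0.95 ± 0.09 at 12 h (adjusted p = 3.18e-08). SETD1A, the paralog that holds the same place in its own complex, gave 83.5, 76.7 and 86.6 CPM at 0 h, 91.0, 84.9 and 88.2 at 5 h, and 56.4, 81.8 and 70.5 at 12 h. It had no call against 0 h (log2 fold change 0.10 at 5 h, adjusted p = 0.484, and -0.23 at 12 h, adjusted p = 0.0935), although the 12 h value passed without 12 h library 2 (adjusted p = 0.0105) and under upper-quartile scaling (0.0305). From 5 h to 12 h SETD1A fell by 0.32 (adjusted p = 0.0279), a call lost without 5 h library 1 or 3 or 12 h library 1 or 3 (adjusted p 0.0643 to 0.111). The log2 ratio of SETD1A to SETD1B counts was -0.33 ± 0.14 at 0 h, 0.85 ± 0.11 at 5 h and 0.36 ± 0.21 at 12 h (SD, n = 3). This pair, like those other than EZH, KDM6 and SUV39H, was chosen after its values were seen, so its ratios are given with no test.

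KMT2A (MLL1, ENSG00000118058, chr11:118436464-118526832) and KMT2B (ENSG00000272333, chr19:35718019-35738878) are the paired menin-bound H3K4 methyltransferases. KMT2A gave 338, 342 and 398 CPM at 0 h, 296, 273 and 279 at 5 h, and 410.0, 396 and 391 at 12 h. The 5 h libraries were the lowest, with a log2 fold change of -0.35 ± 0.09 (edgeR adjusted p = 0.00254), and the 12 h libraries overlapped those at 0 h (0.15 ± 0.09, adjusted p = 0.158). KMT2B gave 80.4, 79.7 and 95.4 CPM at 0 h, 112, 125 and 129 at 5 h, and 151, 172 and 149.9 at 12 h. It rose with no overlap at each step, by 0.52 ± 0.10 at 5 h (adjusted p = 1.87e-04) and 0.89 ± 0.10 at 12 h (adjusted p = 2.45e-07). The log2 ratio of KMT2A to KMT2B counts was 2.08 ± 0.02 at 0 h, 1.21 ± 0.17 at 5 h and 1.34 ± 0.12 at 12 h (SD, n = 3). Of KMT2A's annotated exon bases, 17.9% are shared with AP001267.5, which lies on the same strand, so reads of the 2 genes in those bases cannot be told apart.

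KMT2D, which with KMT2C places H3K4 monomethylation at enhancers, was at 357 ± 28.9, 339 ± 30.4 and 432 ± 44.6 CPM (SD, n = 3). It rose by 0.28 at 12 h against 0 h (edgeR adjusted p = 0.023) and by 0.35 against 5 h (adjusted p = 0.00875). The first call was lost without 0 h library 1 or 12 h library 2 (adjusted p 0.108 and 0.131) and under upper-quartile scaling (0.0787), and the second without 5 h library 3 or 12 h library 2 (0.0593 and 0.0561). KMT2C had no call (175 ± 6.35, 182 ± 7.17 and 198 ± 10.8 CPM), though its 12 h value passed without 12 h library 2 (0.0449). SETD7, an H3K4 monomethyltransferase with many other substrates, rose by 0.39 at 5 h (adjusted p = 0.00409) and 0.28 at 12 h (adjusted p = 0.0301). That 12 h call was lost without 0 h library 2 or 3 or 12 h library 2 or 3 (adjusted p 0.0523 to 0.148) and under upper-quartile scaling (0.0869). The summed level of the 7 H3K4 writers was 1165 to 1283 CPM at 0 h, 1102 to 1185 at 5 h and 1332 to 1439.9 at 12 h, so the 5 h range overlapped that at 0 h.

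**Figure D3:**
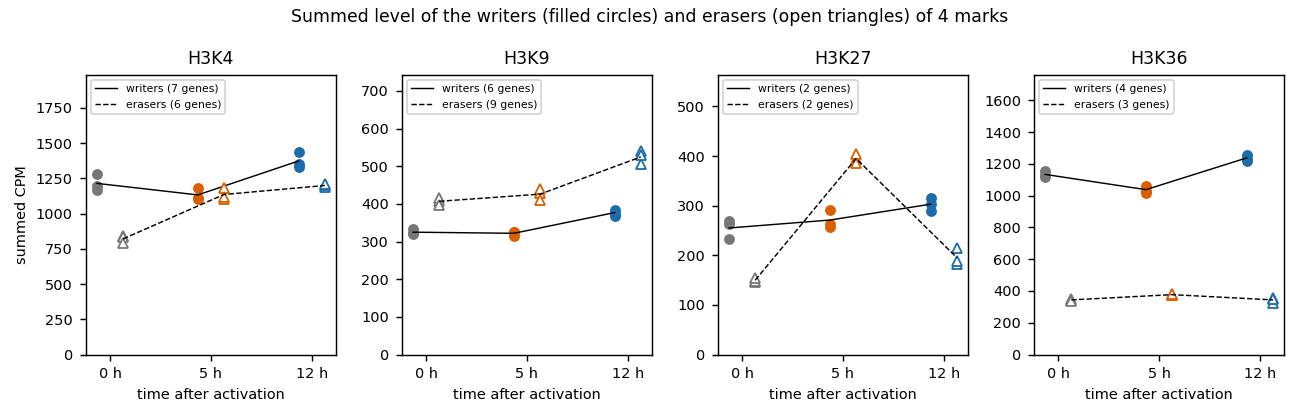
Summed CPM (TMM-scaled, y axis from 0) of the writers (filled circles) and of the erasers (open triangles) of 4 histone marks in each library at 0, 5 and 12 h (x axis), with lines through the means of 3 libraries. The sums are not per length, so the lines are to be read along time only. H3K27 erasers (KDM6A and KDM6B) peak at 5 h (385 to 405 CPM) and H3K4 erasers stay up at both times. UTY is left out, and each gene is counted under a single mark. KDM7A, which also acts on H3K27, and the KDM4 genes are therefore in the H3K9 sum only.

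Among the H3K9 writers, EHMT2 (G9a, ENSG00000204371, chr6:31879759-31897687), which forms a heterodimer with EHMT1 (GLP) and writes H3K9 mono- and dimethylation, dipped. It gave 81.6, 80.7 and 83.8 CPM at 0 h, 45.6, 53.2 and 55.5 at 5 h, and 74.9, 82.6 and 82.2 at 12 h. The 5 h libraries were all below the others, with a fall of 0.67 ± 0.10 on the log2 scale (edgeR adjusted p = 7.50e-06), and the 12 h libraries overlapped those at 0 h (-0.03 ± 0.09, adjusted p = 0.789) after a rise of 0.64 ± 0.10 from 5 h (adjusted p = 4.29e-05). EHMT1 gave 73.0, 75.8 and 71.0 CPM at 0 h, 75.3, 82.6 and 74.1 at 5 h, and 94.7, 97.5 and 93.1 at 12 h. Its 12 h libraries stood above both other groups, by 0.38 ± 0.09 against 0 h (adjusted p = 0.0012) and 0.30 ± 0.09 against 5 h (adjusted p = 0.0119), the latter lost without 5 h library 3 (adjusted p = 0.0606). The partners' log2 count ratio, EHMT1 to EHMT2, was -0.16 ± 0.07 at 0 h, 0.59 ± 0.16 at 5 h and 0.25 ± 0.08 at 12 h (SD, n = 3).

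SUV39H1 and SUV39H2 write H3K9 trimethylation at constitutive heterochromatin. SUV39H1 (ENSG00000101945, chrX:48695554-48709012) gave 36.2, 29 and 35.3 CPM at 0 h, 20.7, 23.8 and 24.8 at 5 h, and 24.4, 32.5 and 26.9 at 12 h. It was lower in every 5 h library, by -0.54 ± 0.13 on the log2 scale (edgeR adjusted p = 0.00224), and the 12 h libraries overlapped both other groups (adjusted p = 0.129 against 0 h and 0.1 against 5 h). Without 12 h library 2 the 12 h value against 0 h passed (-0.38, adjusted p = 0.0359), and without 12 h library 1 the value against 5 h did (0.37, adjusted p = 0.0496). SUV39H2 (ENSG00000152455, chr10:14878820-14904315) gave 51.1, 46.6 and 43.7 CPM at 0 h, 52.9, 51.9 and 48.7 at 5 h, and 58.8, 41.9 and 51.4 at 12 h, overlapping throughout and with no call. The log2 ratio of SUV39H1 to SUV39H2 counts was -0.50 ± 0.19 at 0 h, -1.15 ± 0.19 at 5 h and -0.86 ± 0.46 at 12 h (SD, n = 3), with exact permutation p = 0.1 for 5 h and 0.3 for 12 h against 0 h. SETDB1, the H3K9 methyltransferase that KAP1 brings to retroelements, rose from 68.1 ± 1.74 CPM to 100.4 ± 1.89 at 5 h and 99.8 ± 8.37 at 12 h (log2 fold change 0.56 and 0.55, adjusted p = 2.94e-05 and 3.38e-05), with 13.4% of its exon bases shared with CERS2 on the other strand, and whether counting used strand is not given in the sources used here. SETDB2 had no call.

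Of the H3K9 erasers tested, 2 rose and 1 fell at 5 h, and 3 rose and 0 fell at 12 h. Over all genes, 24.9% rose and 24.8% fell at 5 h, and 26.3% and 24.8% at 12 h. KDM7A (ENSG00000006459, chr7:140084746-140177035), a PHD-finger JmjC enzyme that removes H3K9 and H3K27 dimethylation, had the largest rise at 12 h among the 47 genes. Its libraries gave 27.9, 28.7 and 25.1 CPM at 0 h, 49.9, 49.6 and 45.7 at 5 h, and 74.2, 64.9 and 63.4 at 12 h. The groups were fully separate, with a rise of 0.83 ± 0.11 at 5 h (edgeR adjusted p = 2.36e-06), of 1.30 ± 0.11 or 2.47-fold at 12 h (adjusted p = 3.81e-09), and of 0.47 ± 0.10 between them (adjusted p = 0.00144). KDM3A (JMJD1A, ENSG00000115548, chr2:86440647-86492716), an H3K9 mono- and dimethyl eraser, gave 61.1, 65.3 and 59.2 CPM, then 79.5, 71.1 and 71.1, then 93.2, 90.7 and 97.9. Its groups were also separate, with 0.26 ± 0.09 at 5 h (adjusted p = 0.0246) and 0.60 ± 0.09 at 12 h (adjusted p = 1.44e-05). The KDM3A call at 5 h was lost without 0 h library 1 or 3 or 5 h library 1 (adjusted p 0.0658 to 0.125) and under upper-quartile scaling (0.127).

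The KDM4 family erases H3K9 trimethylation, and some members also H3K36 trimethylation. Of the tested members KDM4A, KDM4B, KDM4C and KDM4D, 2 had calls against 0 h, KDM4B at 5 h and KDM4A at 12 h. Of all genes, 49.7% were called at 5 h and 51.1% at 12 h. KDM4A (ENSG00000066135, chr1:43650158-43705515) gave 72.1, 60.2 and 64.9 CPM at 0 h, 70.2, 67.8 and 72.4 at 5 h, and 88.3, 106 and 106 at 12 h. It had no call at 5 h (0.09 ± 0.10) and stood above both groups at 12 h, by 0.61 ± 0.10 against 0 h (edgeR adjusted p = 2.91e-05). Of its exon bases 40.2% are shared with AL451062.3 on the same strand, so reads of the 2 genes cannot be told apart. KDM4B, at 48.0 ± 1.98 CPM at 0 h, was 34.9 ± 5.47 at 5 h (log2 fold change -0.46, adjusted p = 0.00328) and 51.2 ± 5.08 at 12 h (0.10, adjusted p = 0.483). KDM4C had no call, with 38.3 ± 0.904, 32.1 ± 1.48 and 37.2 ± 1.62 CPM, although its 5 h value passed with only the 2 groups compared (adjusted p = 0.0461) and under upper-quartile scaling (0.0112). KDM4D, at 4.25 to 2.82 CPM, and KDM3B, at 161 to 172 CPM, had none either. The 9 H3K9 erasers, KDM4E and KDM4F at 0 included, summed to 396 to 417 CPM at 0 h, 411 to 439 at 5 h and 506 to 539.6 at 12 h. The 6 H3K9 writers summed to 321 to 333, 314 to 326 and 369 to 384 CPM.

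The H3K36 dimethyl erasers KDM2A and KDM2B, both of which bind unmethylated CpG islands through a zinc finger, moved apart. KDM2A (ENSG00000173120, chr11:67119269-67258087) gave 210.4, 214 and 202 CPM at 0 h, 269, 264 and 267 at 5 h, and 216, 244 and 237 at 12 h. KDM2B (ENSG00000089094, chr12:121429097-121581015), which also brings a variant Polycomb complex PRC1 to CpG islands, gave 126, 127 and 129 CPM, then 94.0, 96.4 and 102, then 104, 106 and 101. No KDM2A library at 5 h was as low as any at 0 h, and no KDM2B library at 5 h or 12 h was as high. At 5 h, KDM2A rose by 0.35 ± 0.08 (edgeR adjusted p = 0.00135) and KDM2B changed by -0.39 ± 0.08 (adjusted p = 5.44e-04). At 12 h the KDM2A value was 0.16 ± 0.08 (adjusted p = 0.117) and the KDM2B value -0.30 ± 0.08 (adjusted p = 0.00491). The log2 ratio of KDM2A to KDM2B counts was 0.71 ± 0.06, 1.45 ± 0.06 and 1.16 ± 0.09 (SD, n = 3).

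KDM8 (JMJD5, ENSG00000155666, chr16:27203495-27221768), a JmjC protein grouped here with the H3K36 erasers although its activity on histones is disputed, was measured with 595 counts in all. It gave 8.82, 6.73 and 6.47 CPM at 0 h, 11.7, 13.4 and 12.7 at 5 h, and 6.10, 8.50 and 9.92 at 12 h. The 5 h libraries were all above the others, with a rise of 0.78 ± 0.19 (edgeR adjusted p = 0.00217). The fall of 0.59 ± 0.19 from 5 h to 12 h (adjusted p = 0.0221) was lost without 12 h library 1 or 2 or 5 h library 2 or 3 (adjusted p 0.0561 to 0.0752) and with DESeq2 (0.0514).

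Of the H3K36 writers, none changed by 1.5-fold. NSD2 (MMSET), a dimethyltransferase known for its overexpression in myeloma, gave 549 ± 17.2, 471 ± 8.53 and 617 ± 27.4 CPM (SD, n = 3), a log2 fold change of -0.22 at 5 h (edgeR adjusted p = 0.0299) and of 0.39 from 5 h to 12 h (adjusted p = 0.00104). Its 5 h call was lost without 0 h library 2 or 3 or any 5 h library (adjusted p 0.0537 to 0.0996), and its 12 h value against 0 h (0.17, adjusted p = 0.0923) passed with DESeq2 (0.0355). NSD3 rose by 0.22 at 12 h (edgeR adjusted p = 0.0281) and by 0.29 from 5 h to 12 h (adjusted p = 0.00839). The call against 0 h was lost without 0 h library 2 or 3 or 12 h library 1 (adjusted p 0.0507 to 0.0857), with no filter on low counts (0.0685), with only the 2 groups compared (0.0614) and under upper-quartile scaling (0.113). NSD1 and SETD2, the latter the main writer of H3K36 trimethylation, had no call, though NSD1 at 5 h (-0.17) passed under upper-quartile scaling (-0.26, adjusted p = 0.0126). The 4 writers summed to 1118 to 1155 CPM at 0 h, 1019 to 1063 at 5 h and 1221 to 1259 at 12 h, 3 ranges that do not overlap. NSD2 was the largest part of the mean sum, 549 of 1134 CPM at 0 h and 471 of 1038 at 5 h. Among single genes, 58.6% did not overlap between 0 h and 5 h, 56.2% between 0 h and 12 h and 44.9% between 5 h and 12 h.

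DOT1L (ENSG00000104885, chr19:2164149-2232578), the enzyme of H3K79 methylation, peaked at 5 h. Its libraries gave 91.8, 98.1 and 100 CPM at 0 h, 161, 162 and 159 at 5 h, and 112, 133 and 112 at 12 h. No groups overlapped, with a rise of 0.73 ± 0.09 at 5 h (edgeR adjusted p = 9.16e-07) and a fall of 0.43 ± 0.09 from 5 h to 12 h (adjusted p = 9.61e-04). The remaining difference at 12 h against 0 h (0.31 ± 0.09, adjusted p = 0.00766) was lost without 12 h library 2 (0.21, adjusted p = 0.0639).

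Of the H4K20 writers, 1 rose and 1 fell at 5 h, and 2 rose and 0 fell at 12 h. Over all genes, 24.9% rose and 24.8% fell at 5 h, and 26.3% and 24.8% at 12 h. KMT5A (SET8, ENSG00000183955, chr12:123383773-123409358) adds the monomethyl mark that KMT5B (ENSG00000110066, chr11:68154863-68213828) and KMT5C extend. KMT5A gave 82.6, 81.3 and 75.4 CPM at 0 h, 69.5, 66.8 and 68.0 at 5 h, and 70.3, 81.9 and 78.6 at 12 h. KMT5B gave 69.8, 67.0 and 68.3 CPM, then 102, 86.1 and 94.5, then 87.1, 89.1 and 93.9. At 5 h every KMT5A library was below and every KMT5B library above its controls, by -0.23 ± 0.09 (edgeR adjusted p = 0.0434) and 0.46 ± 0.09 (adjusted p = 2.77e-04). The KMT5A call was lost without 0 h library 1 or 2 or any 5 h library (adjusted p 0.0716 to 0.107) and with DESeq2 (0.0652), limma on the deposited log2 values (0.0517) and no filter on low counts (0.0733). KMT5B kept a rise of 0.40 ± 0.09 at 12 h (adjusted p = 0.00107). The log2 count ratio of KMT5A to KMT5B was 0.22 ± 0.07 at 0 h, -0.46 ± 0.09 at 5 h and -0.23 ± 0.10 at 12 h (SD, n = 3).

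KMT5C (ENSG00000133247, chr19:55339853-55348120) gave 12.4, 17.0 and 17.2 CPM at 0 h, 13.2, 12.7 and 12.1 at 5 h, and 18.8, 23.1 and 21.2 at 12 h. All 12 h libraries lay above all others. The rise was 0.75 ± 0.15 from 5 h to 12 h (edgeR adjusted p = 9.10e-04) and 0.45 ± 0.15 against 0 h (adjusted p = 0.0151), the second lost without 0 h library 1 (adjusted p = 0.0913) or 12 h library 2 (0.0796). Its 5 h value of -0.29 ± 0.16 (adjusted p = 0.13) passed without 0 h library 1 (-0.44, adjusted p = 0.0264).

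**Figure D4:**
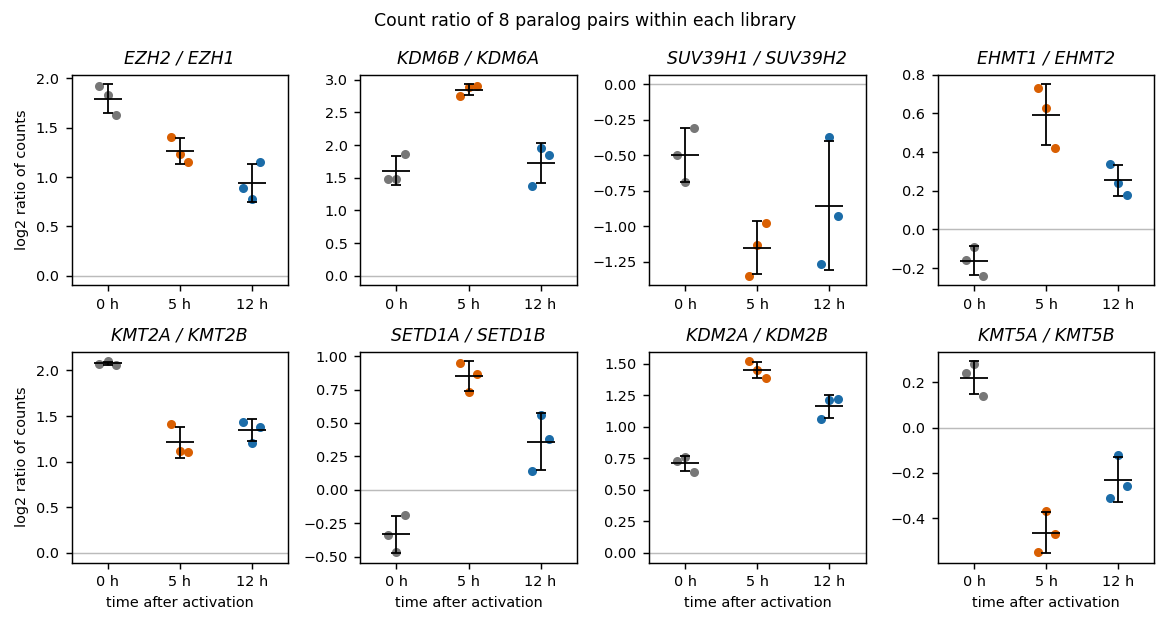
Log2 ratio of the counts of 8 paralog pairs within each library (y axis) at 0, 5 and 12 h (x axis). Points are single libraries, bars and whiskers are the mean ± SD of 3, and the grey line at 0 marks equal counts, which are not adjusted for length. The EZH, KDM6 and SUV39H pairs lie outside their 0 h range at 5 h, and KDM6B / KDM6A and SUV39H1 / SUV39H2 overlap it at 12 h. The other 5 pairs were chosen after their values were seen and are shown as a description.

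The rule also takes in 6 SET-domain proteins placed here outside these marks. SETD5 (ENSG00000168137, chr3:9397615-9479240), a chromatin protein whose own methyltransferase activity is disputed, gave 188, 202 and 187 CPM at 0 h, 273, 266 and 265 at 5 h, and 345, 321 and 306 at 12 h. The groups were separate, with a rise of 0.48 ± 0.08 at 5 h (edgeR adjusted p = 7.43e-05) and 0.75 ± 0.08 at 12 h (adjusted p = 2.72e-07). The step from 5 h to 12 h (0.27, adjusted p = 0.0143) was lost without 5 h library 3 (adjusted p = 0.0544). KMT2E (MLL5, ENSG00000005483, chr7:105014179-105114361), which binds H3K4 trimethylation and has no known activity on histones, gave 159, 155 and 132 CPM at 0 h, 227, 211 and 237 at 5 h, and 205, 202 and 216 at 12 h. Both activated groups were above 0 h, by 0.60 ± 0.09 (adjusted p = 1.57e-05) and 0.48 ± 0.09 (adjusted p = 1.73e-04).

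SETD4 (ENSG00000185917, chr21:36034541-36079389) gave 11.6, 13.5 and 18.7 CPM at 0 h, 20.7, 25.9 and 19.3 at 5 h, and 16.1, 19.7 and 18.2 at 12 h. Its 5 h libraries lay just above those at 0 h, by 0.59 ± 0.17 (edgeR adjusted p = 0.00629), which was lost without 5 h library 2 (0.44, adjusted p = 0.0537). The 12 h value of 0.32 ± 0.17 (adjusted p = 0.132) passed without 0 h library 3 (0.54, adjusted p = 0.0173). SETD3, the actin histidine methyltransferase, had no call at 71.5, 66.3 and 73.1 CPM, and neither had SETD6 (3.47, 4.31 and 3.05 CPM, with 21.4% of exon bases shared with CNOT1) and SETD9 (2.26, 3.02 and 2.17 CPM), for which the counts were low.

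Divided by the summed length of all annotated exons, the levels at 0 h ran from 0.683 CPM per kilobase for SETD6 to 50.7 for KDM1A, among the 47 genes tested. EZH2 stood at 43.7 and NSD2 at 27.8, EZH1 at 8.23, KDM6B at 15.5 and KDM6A at 5.18. At 5 h KDM6B reached 47.8 CPM per kilobase, beside 55.5 for KDM1A and 42.3 for EZH2. With the length of the longest annotated transcript in place of all exons, KDM1A was at 90.1, NSD2 at 64.1 and EZH2 at 54.3 at 0 h, so NSD2 passed EZH2.

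The partners of these enzymes, from lists chosen with earlier results of these data known, are given as counts, to be read against the 24.9% of all genes called higher and 24.8% lower at 5 h, and 26.3% and 24.8% at 12 h. Of 11 PRC2 partners, 10 were tested, and 5 rose and 0 fell at 5 h, while 4 rose and 4 fell at 12 h (median log2 fold change 0.26 and -0.07). JARID2, an accessory subunit, rose from 252 ± 10.4 CPM (SD, n = 3) to 629 ± 16.9 at 5 h and 574 ± 35.5 at 12 h (edgeR adjusted p = 6.14e-11 and 4.75e-10). PHF19, a Polycomb-like subunit that brings PRC2 to chromatin, went from 86.2 ± 4.96 to 237 ± 2.26 and 196 ± 14.7 CPM (adjusted p = 2.05e-11 and 8.07e-10). The core subunit SUZ12 and the accessory EPOP had no call at 5 h and fell at 12 h, SUZ12 from 139.6 ± 13.6 to 108 ± 12.3 CPM (adjusted p = 0.00324) and EPOP from 52.7 ± 4.94 to 35.1 ± 3.21 (adjusted p = 5.32e-04).

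Of the 15 COMPASS and menin partners of the H3K4 writers, 2 rose and 6 fell at 5 h, and 2 rose and 4 fell at 12 h (median log2 fold change -0.12 and -0.17). PSIP1 (LEDGF), which tethers the menin and KMT2A complex to chromatin, fell from 164 ± 12.5 CPM to 73.1 ± 2.33 at 5 h and 107 ± 18.7 at 12 h (edgeR adjusted p = 1.56e-08 and 5.95e-05). ASH2L, a shared core subunit, went from 74.0 ± 1.99 to 55.1 ± 1.37 and 41.8 ± 7.13 CPM (adjusted p = 0.00232 and 3.85e-06). PAGR1, a subunit of the KMT2C and KMT2D complexes, fell from 56.0 ± 7.13 to 33.9 ± 5.21 CPM at 5 h (adjusted p = 2.42e-04). RBBP5, another core subunit, rose at 5 h by 0.40 (adjusted p = 0.00217) and BOD1 by 0.72 (adjusted p = 9.65e-05), and NCOA6 rose at 12 h by 0.32 (adjusted p = 0.00503).

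Of 12 LSD1-CoREST partners, 3 rose and 5 fell at 5 h, and 5 rose and 4 fell at 12 h (median log2 fold change -0.16 and 0.05). The scaffold RCOR1 rose from 97.5 ± 10.1 CPM to 206 ± 8.84 at 5 h and 154 ± 6.07 at 12 h (edgeR adjusted p = 3.98e-09 and 4.44e-06), while its paralog RCOR2 fell at 5 h from 16.5 ± 2.38 to 7.02 ± 1.44 CPM (adjusted p = 3.77e-05). ZMYM2 rose by 0.66 at 5 h (adjusted p = 1.36e-05), and GSE1 fell by 0.69 (adjusted p = 7.09e-07). PHF21A, which reads unmethylated H3K4, rose by 0.59 at 12 h (adjusted p = 7.20e-05).

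Of 13 H3K9 partners and HP1 proteins, all tested, 2 rose and 1 fell at 5 h, and 3 rose and 3 fell at 12 h (median log2 fold change 0.07 and -0.07). ATF7IP2 rose by 0.92 at 5 h (edgeR adjusted p = 1.62e-05), and ATF7IP, the SETDB1 cofactor, by 0.55 at 12 h (adjusted p = 1.55e-04). The HUSH subunit PPHLN1 (-0.40, edgeR adjusted p = 0.00124) and the HP1 protein CBX3 (-0.37, adjusted p = 0.00426) were lower at 12 h. Of 7 DOT1L partners, 2 rose and 1 fell at 5 h, and 4 rose and 2 fell at 12 h (median 0.15 and 0.28). AFF3, of the AF4 family of elongation factors, was at 64.9 ± 0.657 CPM at 0 h and 63.2 ± 4.88 at 5 h and rose to 155 ± 3.67 at 12 h (adjusted p = 2.87e-10).

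Among 17 SET and PRDM proteins that the rule leaves out, 13 were tested, and 7 rose and 2 fell at 5 h, and 7 rose and 5 fell at 12 h (median log2 fold change 0.27 and 0.36). PRDM8 rose from 5.13 ± 0.307 CPM to 67.6 ± 2.19 at 5 h and 51.6 ± 6.78 at 12 h, a log2 fold change of 3.71 (edgeR adjusted p = 7.11e-15) and 3.34 (adjusted p = 9.81e-14), and PRDM1 (BLIMP1), with 139 counts in all, from 0.625 ± 0.632 to 3.01 ± 0.822 and 3.02 ± 0.763 CPM (adjusted p = 0.00107 and 8.26e-04). SETMAR fell at 12 h from 31.1 ± 2.74 to 16 ± 1.63 CPM (edgeR adjusted p = 6.54e-06). PRDM11 fell by 1.13 at 12 h (adjusted p = 3.58e-04), and SMYD2 by 0.83 at 5 h (adjusted p = 1.80e-05). Of 13 other JmjC proteins, 3 rose and 2 fell at 5 h, and 4 rose and 3 fell at 12 h (median 0.14 and 0.01). JMJD1C, a relative of KDM3A, rose from 164 ± 11.6 CPM to 346 ± 33.5 and 255 ± 28.7 (edgeR adjusted p = 1.86e-08 and 2.34e-05). PHF8, of the same subfamily as KDM7A, rose by 0.91 at 12 h (adjusted p = 5.04e-08), and HR was lower at 5 h (-1.16, adjusted p = 0.00155). Of 10 genes for methyl donor and cofactor supply, 9 were tested, and 1 rose and 2 fell at 5 h, and 5 rose and 1 fell at 12 h (median -0.07 and 0.30). IDH1, which makes 2-oxoglutarate, the co-substrate of JmjC enzymes, rose from 44.0 ± 1.78 to 73.7 ± 2.14 CPM at 12 h (adjusted p = 2.96e-06), and IDH2 fell from 325 ± 19.5 to 213 ± 24.7 CPM at 5 h (adjusted p = 3.21e-05).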

How the data were processed

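RNA was measured in 9 libraries of Jurkat Clone E6-1. The deposited whole-number counts per Ensembl gene were used. Tools listed by the submitters' processing notes are cutadapt, RSEM and DESeq2, without versions or roles, and the build listed is GRCh38.p13. RSEM gives estimated counts, so the counts may be rounded. Whether strand was used, and which annotation release, is not given in the sources used here. The deposited log2 values equal log2 of the count over a factor per library, plus 1, for the 12692 genes with a count in all 9 libraries, and served in an alternative only and, through their symbol column, to find the genes.

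The 9 libraries entered 1 edgeR fit (version 4.0.16, R 4.3.3; TMM, filterByExpr, a coefficient per group, glmQLFTest), with Benjamini-Hochberg adjustment over 12036 genes and a call under 0.05. Replicates varied with a common biological coefficient of variation of 0.0887. The script was tested on simulated counts. Ratios within a library were compared by exact permutation for the EZH, KDM6 and SUV39H pairs. DESeq2 1.42.0, limma 3.58.1, other scalings, no filter, 2 groups only, a replicate block and leaving out each library were alternatives. Replicates differed beyond sampling noise, so none was counted as a repeat.

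The members and all lists were chosen with earlier results of these data known. Full values are given for members called with a log2 fold change of at least 0.58 in size, for paralogs called in opposite directions and for EZH, KDM6 and SUV39H. From each list, values are given for some of the genes among the 2 largest called changes in each direction at each time. The paralog pairs EHMT, KMT2A with KMT2B, SETD1, KDM2 and KMT5A with KMT5B were added after their values were seen and are untested. Exon lengths and overlaps are from GENCODE 29.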

Additional observations from a re-analysis of the deposited data

Results flagged for a closer look

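For 6 enzymes the change against 0 h had opposite signs at 5 h and at 12 h, with at least 1 of the 2 changes called, and the difference between the times was itself called by edgeR (12 h against 5 h). In log2 units the difference was 0.75 for KMT5C (adjusted p = 9.10e-04), 0.56 for KDM4B (adjusted p = 0.00121), 0.50 for KMT2A (adjusted p = 2.06e-04), 0.39 for NSD2 (adjusted p = 0.00104), 0.35 for KMT2D (adjusted p = 0.00875) and 0.29 for NSD3 (adjusted p = 0.00839). All 6 were lower at 5 h than at 0 h and higher at 12 h by their means. KMT2A, KDM4B and NSD2 were called against 0 h only at 5 h, and KMT5C, KMT2D and NSD3 only at 12 h. As given above, those calls of NSD2, KMT5C, KMT2D and NSD3 were lost in some of the alternative fits. The KMT2D call from 5 h to 12 h was also lost in some. The times share the 0 h libraries, which enter neither side of the tested difference but set the signs by which the 6 were picked. The adjusted p-values are therefore those of a list picked from these data, and they do not test a change of sign. KMT2D (-0.07 ± 0.10, SE) and NSD3 (-0.07 ± 0.08) at 5 h and KDM4B at 12 h (0.10 ± 0.12) lay within 1 SE of no change against 0 h.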

How the results depend on the processing

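Under DESeq2, limma, RLE and upper-quartile scaling, no filter on low counts, a fit of only the 2 groups and a replicate block, the counts of called enzymes stayed within 1.5 times those given. Leaving out 1 library gave 17 to 19 higher and 6 to 8 lower at 5 h, 18 to 21 higher and 2 to 4 lower at 12 h (4 without 12 h library 2), and 11 to 17 higher and 2 to 3 lower between 5 h and 12 h (2 without 5 h library 3 or 12 h library 1). No called value changed sign. With upper-quartile scaling, the summed CPM of the H3K9 erasers at 5 h against 0 h went to -0.02 (log2). With the replicate number as a block the counts were 20 and 7, 22 and 2, and 16 and 4, with KMT5A at 5 h lost (-0.23, edgeR adjusted p = 0.0526). Of 9 same-numbered pairs of libraries, 2 correlated above 0.1 (-0.143 to 0.163), and differently numbered pairs ran from -0.2 to 0.187. No pairing by number was seen, but with 3 libraries a group this check cannot exclude it.

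Some values without a call changed sign. With upper-quartile scaling these were KMT2C -0.02, KDM3B -0.07 and EHMT1 -0.01 at 5 h against 0 h, EZH2 -0.06 and SETD3 -0.04 at 12 h against 0 h, and SETDB1 0.01 from 5 h to 12 h, where SETDB1 was 0.00 with only the 2 groups compared. Leaving out 1 library at a time, the values at 5 h against 0 h ran from -0.13 to 0.56 for SETD6, -0.12 to 0.00 for EZH2 and -0.03 to 0.06 for KDM3B. At 12 h against 0 h they ran from -0.11 to 0.01 for KDM1A, -0.40 to 0.08 for SETD6, -0.04 to 0.04 for EZH2, -0.03 to 0.22 for SUV39H2, -0.31 to 0.21 for SETD9, -0.04 to 0.11 for SETD3, -0.09 to 0.00 for KMT5A and -0.06 to 0.00 for EHMT2. From 5 h to 12 h they ran from -0.07 to 0.06 for SETDB1, -0.15 to 0.10 for SUV39H2 and -0.07 to 0.00 for SETD2. The cause was not tested. SETD6, SETD9 and KDM4D had only 229, 154 and 225 counts in all libraries together, so small changes in them were not detectable at this depth.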

Other observations

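Enzymes of other chromatin modifications, from lists chosen with earlier results known, are given beside the 49.7% of all genes called at 5 h and the 51.1% at 12 h. UHRF1, which brings the maintenance DNA methyltransferase to replicated DNA and reads H3K9 methylation, fell from 392 ± 40.7 CPM (SD, n = 3) at 0 h to 133 ± 13.4 at 5 h and 153 ± 24.7 at 12 h (edgeR adjusted p = 4.02e-10 and 4.68e-09). DNMT1 fell at 12 h from 443 ± 25.8 to 297 ± 22.4 CPM (adjusted p = 1.84e-05) and DNMT3B at 5 h from 13.4 ± 1.77 to 6.00 ± 0.954 (adjusted p = 7.37e-05). The de novo methyltransferase DNMT3A rose at 5 h by 0.49 on the log2 scale (adjusted p = 4.62e-05), and the demethylation enzyme TET2 by 0.67 at 5 h and 0.71 at 12 h (adjusted p = 1.07e-05 and 5.36e-06). Of these 7 DNA methylation and demethylation genes, 3 rose and 3 fell at 5 h, and 2 rose and 3 fell at 12 h.

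Of 23 histone acetyltransferases and deacetylases, 3 rose and 3 fell at 5 h, and 7 rose and 3 fell at 12 h. For these 23 genes the counts are below the share of all genes called at both times. HDAC1 and HDAC2 are not among them, because they were counted with the LSD1-CoREST partners. HDAC1 was lower at 5 h (-0.43, edgeR adjusted p = 3.49e-04) and at 12 h (-0.47, adjusted p = 1.64e-04). HDAC2 was lower at 12 h (-0.40, adjusted p = 0.00149) and had no call at 5 h. Adding both would bring the 12 h share nearer to that of all genes. Among the class IIa deacetylases of that list, HDAC5 had no call (-0.32 at 5 h, edgeR adjusted p = 0.107, and 0.18 at 12 h, adjusted p = 0.343). HDAC7 rose from 129 ± 4.96 CPM to 247 ± 11.6 at 5 h and 321 ± 36.2 at 12 h (edgeR adjusted p = 4.64e-08 and 3.51e-10), HDAC9 from 26.2 ± 2.03 to 51.6 ± 3.77 at 12 h (adjusted p = 3.83e-07), and HDAC4 fell from 228 ± 14.1 to 115 ± 9.77 at 12 h (adjusted p = 1.60e-08). The acetyltransferase KAT2B was at 24.6 ± 1.99, 12.0 ± 1.93 and 21.6 ± 2.52 CPM, called lower at 5 h (adjusted p = 7.56e-06). HDAC11, with 189 counts in all, was lower at 5 h (-1.67, edgeR adjusted p = 0.00237), and SIRT1 was lower at 12 h (-0.80, adjusted p = 5.09e-05). Of 9 tested of 10 genes for arginine methylation, 5 rose and 2 fell at 5 h, and 4 rose and 2 fell at 12 h. PRMT9 rose by 0.79 at 5 h (adjusted p = 4.93e-05), PRMT7 fell by 0.68 at 5 h (adjusted p = 1.01e-04), and PRMT6 fell by 0.78 at 12 h (adjusted p = 1.26e-04).

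KDM2B and SETD1B lie 223 kb apart on chromosome 12 (GRCh38). They were the only enzymes of the rule called lower at both times against 0 h in the edgeR fit of all 9 libraries. Others, such as SUV39H1 (-0.54 at 5 h and -0.24 at 12 h), had lower values at both times without a call at both. The genes between them were looked at after this was seen. ORAI1 was also lower at both times (log2 fold change -0.43 at 5 h and -0.33 at 12 h, edgeR adjusted p = 8.51e-04 and 0.00686), RHOF was lower at 5 h (-0.57, adjusted p = 0.00474) and higher at 12 h (0.47, adjusted p = 0.0112), and MORN3 and TMEM120B had no call (-0.02 and -0.06 at 5 h, adjusted p = 0.967 and 0.656).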
